A study of Xenopus tropicalis with 15 samples.

Results

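Ferritin and iron handling genes were followed in blood cells of the frog Xenopus tropicalis. The set was fixed by name as 7 genes, the ferritin heavy chain gene fth1.1, its autophagy receptor gene ncoa4, the uptake genes tfrc and slc11a2, the exporter gene slc40a1, and the iron regulatory protein genes aco1 and ireb2. All 7 are among the 26531 genes of the deposited count table, and 6 had enough counts to be tested (8939 genes in all passed that filter). slc40a1 did not. The samples are total peripheral blood cells of wild-type animals, drawn from the heart into EDTA, and RNA was read from transcript 3' ends with Lasy-Seq. The 5 groups of 3 libraries were fresh cells, cells cultured for 1.5 h or 4.0 h without added hormone (control), and cells cultured for the same times with 1 ng/mL recombinant X. tropicalis erythropoietin (EPO) made in E. coli. The cultured groups shared the same diluted IMDM medium with fetal calf serum, so culture and serum cannot be told apart. The labels call the replicates biological without naming the animals, so each p-value rests on the spread between libraries that may share animals or handling.

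Red cells handle most of the iron in a vertebrate body, because each hemoglobin chain carries an iron-containing heme. In mammals, transferrin-bound iron enters through the transferrin receptor, leaves the endosome through the divalent metal transporter DMT1, and goes to heme synthesis or into the ferritin shell, from which NCOA4 returns it by carrying ferritin to lysosomes. Surplus iron leaves by ferroportin. When iron is scarce, the iron regulatory proteins bind hairpins in some of these mRNAs, those of ferritin and the transferrin receptor among them. The binding blocks ferritin translation and stabilises the transferrin receptor mRNA. Much of this control thus acts on translation and does not have to appear in mRNA counts. EPO, the hormone of red cell production, acts through its receptor on erythroid cells, and in mammals it lowers hepcidin by way of the erythroid hormone erythroferrone.

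The libraries held between 1329340 and 6351053 counts, and the genes tested took at least 99.0% of them in each. Depth differed by group. Fresh libraries held 1329340 to 2329659 counts, and control libraries 2350234 to 4472724 at 1.5 h and 1958663 to 3388564 at 4.0 h. EPO libraries held 3904765 to 5868379 counts at 1.5 h and 2287764 to 6351053 at 4.0 h. Of 19 red cell markers 17 were in the table, and together they held between 405655 and 512594 CPM (counts relative to library size, with libraries scaled to each other by the TMM method). Thrombocyte markers (9 of 12 in the table) summed to between 432 and 568 CPM, granulocyte and monocyte markers (15 of 20) to between 232 and 538 CPM. T and NK cell markers (10 of 12, of which cd8b had no count) summed to between 7.48 and 26.4 CPM, and B cell markers (8 of 10) to between 38.9 and 74.8 CPM. The red cell sum was lower with EPO than in the control of the same replicate number in every pair. At 1.5 h it was 437568, 468138 and 406224 CPM with EPO against 493540, 512594 and 440702 in control (replicates 1, 2 and 3). At 4.0 h it was 460618, 436727 and 405655 CPM against 480184, 467612 and 435636. Gene by gene, the 16 red cell markers tested had a median log2 fold change with EPO of -0.07 at 1.5 h and -0.02 at 4.0 h. The medians over all genes tested were -0.02 and 0.00. The T and NK cell sum was also lower with EPO in every pair. Its replicate 2 pair at 1.5 h was nearly level, at 9.61 CPM with EPO and 9.73 CPM in control. Of that list only 2 genes had enough counts to be tested. The part of these differences in the EPO comparisons was not tested. Each library is a mixture of cells, in which fewer cells of a type and less RNA per cell cannot be told apart. Libraries that carry the same replicate number deviated together from their group means (r of 0.278 to 0.628 over 30 pairs), so a fit with the number as a block is given beside the fit of group means where the precision differs. Ranks and shares among genes are those of counts, since no transcript lengths were used, and are not transcript levels.

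The ferritin heavy chain forms the shell in which a cell keeps iron, and oxidises the iron on entry. In these cells fth1.1 ranked 4 by counts among all genes and took 2.54% of them, between 2.01% and 3.40% per library. Fresh cells held 21262, 21347 and 33552 CPM of fth1.1 in replicates 1, 2 and 3. Control cells held 22256, 22988 and 31803 CPM at 1.5 h, and 21623, 21666 and 31735 CPM at 4.0 h. EPO-treated cells held 21354, 21032 and 31217 CPM at 1.5 h, and 22092, 21018 and 32704 CPM at 4.0 h. In each of the 5 groups replicate 3 stood above the other libraries, while the group means stayed between 24535 and 25682 CPM and the groups overlapped throughout.

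**Figure D1:**
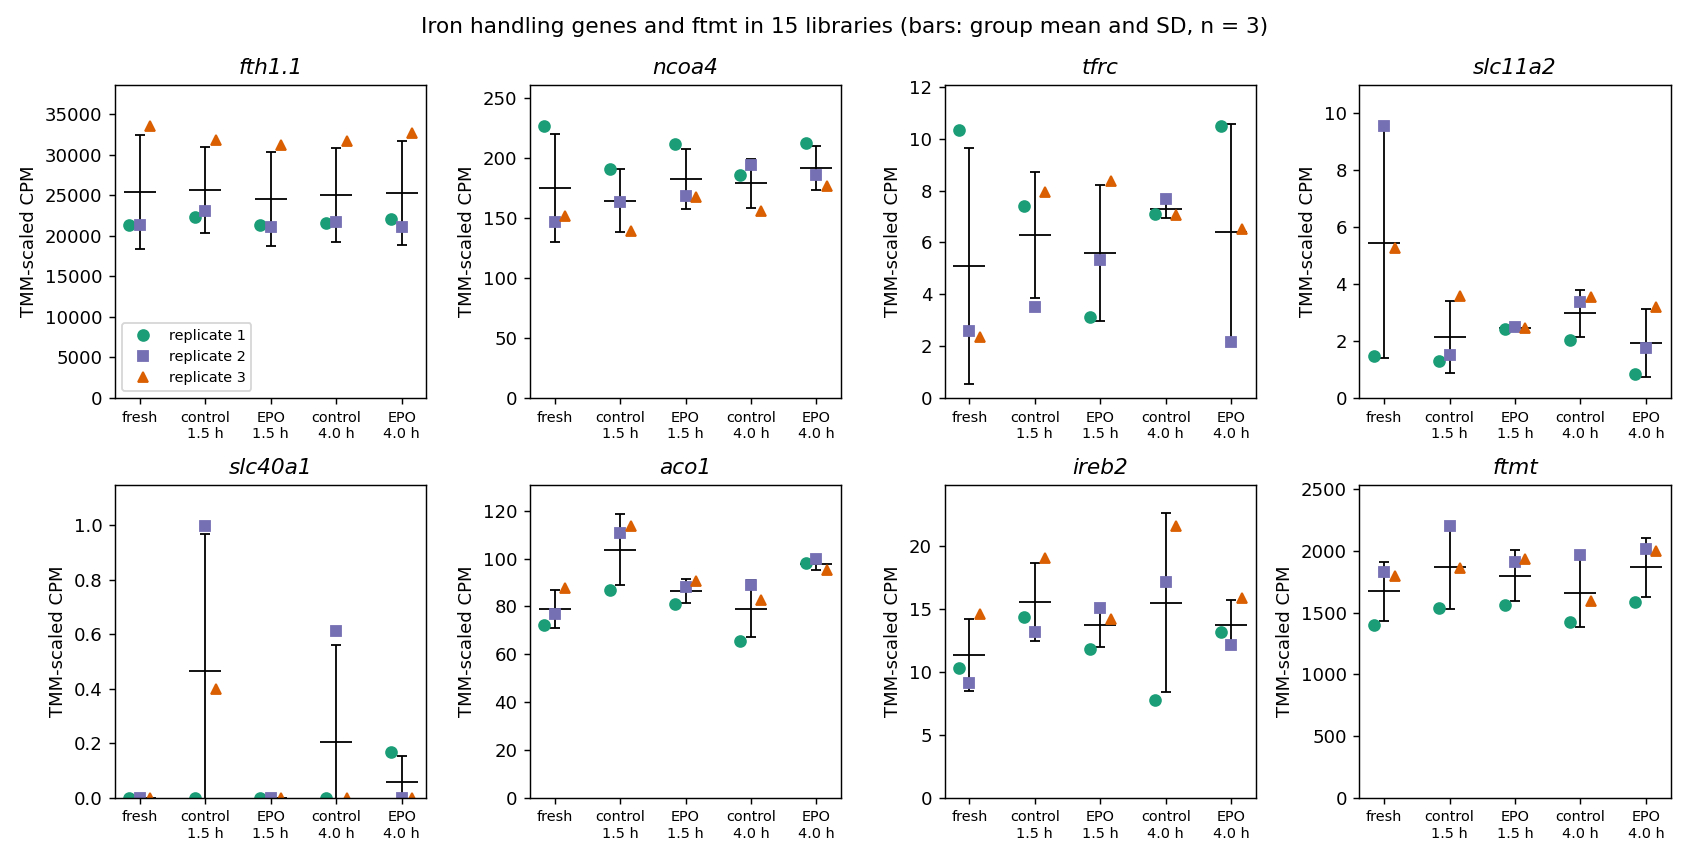
Levels of the 7 iron handling genes and of ftmt in TMM-scaled CPM (y axis, linear from 0) in the 5 groups (x axis). Points are single libraries, with shape and colour for the replicate number, and bars show the group mean and SD (n = 3). For fth1.1 the 5 libraries of replicate 3 sit between 31217 and 33552 CPM and the other 10 between 21018 and 22988.

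No change of fth1.1 passed the test in any of the 7 comparisons (edgeR adjusted p between 0.983 and 1.00). With EPO at 1.5 h its log2 fold change was -0.07 ± 0.267 (SE), a 95% interval of 0.635-fold to 1.44-fold. With the replicate number as a block the same change was -0.07 ± 0.0379, an interval of 0.902-fold to 1.00-fold (adjusted p = 0.542). Compared within a replicate number, EPO libraries at 1.5 h held 0.960, 0.915 and 0.982 times the fth1.1 level of their controls (replicates 1, 2 and 3). All 3 ratios lay below 1, while at 4.0 h, with ratios of 1.02, 0.970 and 1.03, 2 of 3 lay above 1. With the block, the log2 fold change at 4.0 h was 0.01 ± 0.0379, an interval of 0.956-fold to 1.06-fold.

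Culture without EPO gave no change of fth1.1 that passed either. Control cells at 4.0 h held 1.02, 1.01 and 0.946 times the fth1.1 level of the fresh cells of the same number. The blocked log2 fold change was -0.01 ± 0.0379, with an interval of 0.941-fold to 1.05-fold, and at 1.5 h against fresh it was 0.03 ± 0.0379, with an interval of 0.970-fold to 1.08-fold. Over all 15 ratios within a number, in 5 pairwise comparisons that share samples, the range was 0.915 to 1.08.

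The difference of fth1.1 between replicate numbers was larger than any difference between groups. Libraries of replicate 3 lay above the mean of replicates 1 and 2 by 0.57 ± 0.0609 on the log2 scale (SD over 5 groups), a ratio of 1.49, with ratios of 1.41 to 1.57 in the 5 groups. The pattern was seen after looking at the values, and is given with no test. Among all 8939 genes tested, 155 (1.73%) had replicate 3 highest in all 5 groups, and 525 (5.87%) had 1 number, whichever it was, highest in all 5. Of 108 genes with a mean of at least 1000 CPM, 3 had replicate 3 highest in all 5 groups, and fth1.1 had the widest difference of the 108. The block cut the SE of fth1.1 to 0.142 of its value, against a median of 0.969 over the genes tested, and 2 of 8939 genes had a ratio at or under that of fth1.1, itself included.

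The marker sums of the same libraries were also read by replicate number. The granulocyte and monocyte markers, 15 of 20 in the table, summed to between 240 and 326 CPM in the libraries of replicate 3, to between 336 and 538 in replicate 1 and to between 232 and 391 in replicate 2. The thrombocyte markers, 9 of 12 in the table, lay between 455 and 568 CPM in replicate 3, between 491 and 543 in replicate 1 and between 432 and 505 in replicate 2. The red cell markers, 17 of 19 in the table, lay between 405655 and 473170 CPM in replicate 3, between 437568 and 493540 in replicate 1 and between 436727 and 512594 in replicate 2. Only the ranges of replicates 1 and 3 on the granulocyte and monocyte list lay apart. The ranges of replicates 2 and 3 overlapped on each of these 3 lists. Their part in the fth1.1 difference was not tested, and what a replicate number stands for is not given in the sources used here.

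**Figure D2:**
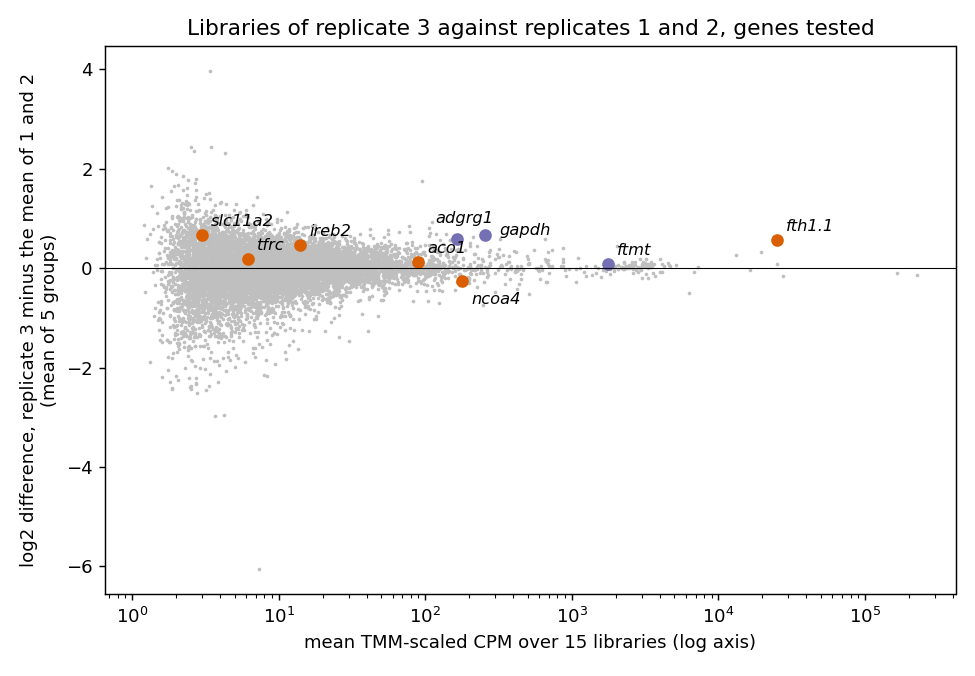
Log2 difference between libraries of replicate 3 and the mean of replicates 1 and 2, averaged over the 5 groups (y axis), against the mean level in TMM-scaled CPM (x axis, log scale) for the 8939 genes tested (grey). Orange points are the 6 tested iron handling genes, and purple points are ftmt and the genes adgrg1 and gapdh, whose profiles were most like that of fth1.1. fth1.1 lies at 0.57, apart from other genes of its abundance.

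A second ferritin gene of the table, ftmt, is named after the mitochondrial ferritin of mammals, and took 0.181% of all counts. How reads were divided between similar ferritin copies is not given in the sources used here, so both ferritin levels are uncertain to that extent. Fresh cells held 1396, 1827 and 1794 CPM of ftmt in replicates 1, 2 and 3, control cells 1537, 2206 and 1860 at 1.5 h and 1423, 1970 and 1595 at 4.0 h, and EPO-treated cells 1558, 1911 and 1932 at 1.5 h and 1587, 2012 and 1999 at 4.0 h. Here replicate 1 was lowest in all 5 groups, and replicate 3 lay above the mean of replicates 1 and 2 by 0.09 ± 0.109 on the log2 scale (SD over 5 groups), a pattern by number unlike that of fth1.1. None of the 7 comparisons of ftmt passed (edgeR adjusted p of at least 0.791, and at least 0.263 with the block). With the block, 4 of the 7 had an edgeR unadjusted p below 0.05, beside 9.43% of all results. Within a number, ftmt was higher with EPO than in control in 2 of 3 at 1.5 h and in 3 of 3 at 4.0 h. Control exceeded fresh in 3 of 3 at 1.5 h and in 2 of 3 at 4.0 h.

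NCOA4 delivers ferritin to the lysosome, where its iron is freed, a step that mammalian red cell precursors use for hemoglobin synthesis. Fresh cells held 227, 147 and 151 CPM of ncoa4 in replicates 1, 2 and 3. Control cells held 191, 163 and 139 CPM at 1.5 h and 186, 194 and 156 CPM at 4.0 h, and EPO-treated cells 211, 168 and 167 CPM at 1.5 h and 212, 186 and 176 CPM at 4.0 h. All groups overlapped, and the means ran from 164 CPM in control at 1.5 h to 191 CPM with EPO at 4.0 h, each overlapping its neighbour in that order.

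The replicate numbers went the other way for ncoa4 than for fth1.1. Replicate 3 lay 0.842 times as high as the mean of replicates 1 and 2, with ratios between 0.787 and 0.888 in the 5 groups. It was not the lowest in all 5 groups, since fresh cells held 147 CPM in replicate 2 and 151 CPM in replicate 3. In the other tested members replicate 3 lay higher on average, though not highest in all 5 groups. The log2 differences were 0.67 ± 0.572 for slc11a2, 0.47 ± 0.303 for ireb2, 0.18 ± 0.794 for tfrc and 0.12 ± 0.116 for aco1 (SD over 5 groups). The mean EPO effect on ncoa4 was 0.12 ± 0.119 (SE, edgeR adjusted p = 0.784), with an interval of -0.12 to 0.37 on the log2 scale, and 0.12 ± 0.0799 with the block (adjusted p = 0.512). Within a number, EPO libraries were higher than their controls in 3 of 3 numbers at 1.5 h, by 1.03-fold to 1.21-fold, and in 2 of 3 at 4.0 h.

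The transferrin receptor, TFRC, is the entry gate for iron in mammalian red cell precursors and is shed as the cells mature. In this blood tfrc was sparse, with 339 counts over all 15 libraries. Fresh cells held 10.3, 2.60 and 2.34 CPM of tfrc in replicates 1, 2 and 3, from 14, 6 and 4 counts. Control cells held 7.42, 3.49 and 7.96 CPM at 1.5 h and 7.10, 7.66 and 7.05 CPM at 4.0 h. EPO-treated cells held 3.14, 5.34 and 8.36 CPM at 1.5 h and 10.5, 2.18 and 6.52 CPM at 4.0 h. Libraries of 1 group differed by up to 4.83-fold, and the group means, from 5.09 CPM in fresh cells to 7.27 CPM in control at 4.0 h, overlapped at every step of their order.

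The data bound a change of tfrc only loosely. Against fresh cells its log2 fold change was 0.60 ± 0.60 in control culture at 4.0 h (SE, edgeR adjusted p = 0.838), with an interval of -0.62 to 1.82. The fresh mean rests on replicate 1, and without that library the value was 1.54 (adjusted p = 0.568). The mean EPO effect was -0.12 ± 0.381 (adjusted p = 0.957), with an interval of -0.89 to 0.66. The related receptor gene tfr2, which in mammals senses transferrin in liver and erythroid cells, lay between 3.69 and 15.9 CPM over the 15 libraries and passed in no comparison (edgeR adjusted p of at least 0.798).

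DMT1, encoded by slc11a2, moves ferrous iron out of the endosome into the cytosol. It had 144 counts over all 15 libraries. Fresh cells held 1.48, 9.54 and 5.26 CPM of slc11a2 in replicates 1, 2 and 3, control cells 1.31, 1.50 and 3.58 CPM at 1.5 h and 2.03, 3.37 and 3.53 CPM at 4.0 h. EPO-treated cells held 2.41, 2.49 and 2.46 CPM at 1.5 h and 0.847, 1.74 and 3.18 CPM at 4.0 h. Fresh replicates 2 and 3 were above every cultured library, while fresh replicate 1 was among the lowest, so fresh and cultured groups overlapped. The summed granulocyte and monocyte markers lay at 538, 391 and 326 CPM in fresh replicates 1, 2 and 3. In the cultured libraries they lay between 232 and 382 CPM, and their part in the slc11a2 levels was not tested. The log2 fold change of control at 1.5 h against fresh was -1.40 ± 0.764 (SE, edgeR adjusted p = 0.554), with an interval of -2.96 to 0.15, and at 4.0 h against fresh it was -0.92 ± 0.744 (adjusted p = 0.787). Without fresh replicate 2 these values were -0.71 and -0.22. With EPO the log2 fold changes of slc11a2 were 0.22 ± 0.751 at 1.5 h and -0.59 ± 0.751 at 4.0 h. Single libraries moved both, from -0.01 without control replicate 2 to 0.78 without control replicate 3 at 1.5 h, and from -1.27 without EPO replicate 3 to -0.20 without EPO replicate 1 at 4.0 h.

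Ferroportin, encoded by slc40a1, is the known iron exporter of vertebrate cells, and mouse red cells also carry it. Its mRNA was close to the detection limit here. No count of slc40a1 was found in fresh cells or with EPO at 1.5 h, 5 counts in control at 1.5 h (0, 4 and 1 in replicates 1, 2 and 3), 2 in control at 4.0 h (0, 2 and 0) and 1 with EPO at 4.0 h (1, 0 and 0). A count of 0 over a group allows a level of up to 0.558 CPM in fresh cells and 0.189 CPM with EPO at 1.5 h, taking 3 counts as the limit. For control at 1.5 h the pooled level was 0.567 CPM, with a 95% exact Poisson interval of 0.184 to 1.32 CPM. Such intervals and limits cover counting error only, because PCR copies of 1 molecule are counted apart where no identifier marks it. The interval holds the limit for fresh cells and, near its lower end, the limit for EPO at 1.5 h. No difference of slc40a1 between groups was tested, because its counts were too few.

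The iron regulatory proteins are the iron sensors of the cell. IRP1, the product of aco1, is a cytosolic aconitase while it holds an iron-sulfur cluster and binds RNA hairpins without it, and IRP2, the product of ireb2, is degraded when iron is plentiful. Fresh cells held 72.4, 76.7 and 87.7 CPM of aco1 in replicates 1, 2 and 3. Control cells held 86.8, 111 and 114 CPM at 1.5 h and 65.6, 88.9 and 82.6 CPM at 4.0 h. EPO-treated cells held 80.8, 88.1 and 90.6 CPM at 1.5 h and 98.1, 99.6 and 95 CPM at 4.0 h. The mean was highest in control at 1.5 h (104 ± 14.7 CPM, SD, n = 3), then with EPO at 4.0 h (97.6 ± 2.33) and at 1.5 h (86.5 ± 5.10), and lowest in control at 4.0 h (79.0 ± 12) and in fresh cells (78.9 ± 7.90). EPO and control at 4.0 h did not overlap, as was the case for 14.4% of all genes tested. The EPO libraries at 4.0 h (95 to 99.6 CPM) also lay above those of EPO at 1.5 h (80.8 to 90.6) and of fresh cells (72.4 to 87.7). Those pairs of groups are not among the 7 comparisons, and the share of all genes without overlap there is not given here.

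None of the 7 comparisons of aco1 passed the correction over all genes. An edgeR unadjusted p below 0.05 was found in 3 of the 7, those of 1.5 h control against fresh, of 4.0 h control against 1.5 h control and of the EPO effects at the 2 times. Over all genes and comparisons, 7.16% of the results had such a p. With the block, 4 of the 7 had one, EPO at 4.0 h among them (edgeR unadjusted p = 0.0255), beside 9.43% of all results. Control culture at 1.5 h exceeded fresh by a log2 fold change of 0.39 ± 0.169 (SE, edgeR adjusted p = 0.424, and 0.199 with the block), higher in 3 of 3 numbers. Control at 4.0 h lay below control at 1.5 h by -0.39 ± 0.167 (edgeR adjusted p = 0.999, and 0.727 with the block), lower in 3 of 3 numbers. The EPO effect on aco1 was -0.26 ± 0.164 at 1.5 h (edgeR adjusted p = 0.829, and 0.536 with the block). At 4.0 h it was 0.30 ± 0.166 (adjusted p = 0.781), and 0.31 ± 0.137 with the block (adjusted p = 0.400). These 4 values share samples, since the high control level at 1.5 h enters 3 of them.

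The ireb2 gene had 748 counts over all 15 libraries. Fresh cells held 10.3, 9.1 and 14.6 CPM of ireb2 in replicates 1, 2 and 3, control cells 14.4, 13.2 and 19.1 CPM at 1.5 h and 7.78, 17.2 and 21.7 CPM at 4.0 h. EPO-treated cells held 11.8, 15.1 and 14.3 CPM at 1.5 h and 13.2, 12.2 and 15.9 CPM at 4.0 h. All neighbouring groups overlapped. Control at 1.5 h exceeded fresh by 0.46 ± 0.362 on the log2 scale (SE, edgeR adjusted p = 0.737), higher in 3 of 3 numbers by 1.31-fold to 1.45-fold. The mean EPO effect on ireb2 was -0.16 ± 0.234 (adjusted p = 0.879), with an interval of -0.63 to 0.32.

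As a set, 0 of the 6 tested iron handling genes passed an adjusted p of 0.05 by edgeR's quasi-likelihood test in any of the 7 comparisons, and 0 by the DESeq2 Wald test. The share of all 8939 genes that passed was 0.436% for the EPO effect at 1.5 h and 0.190% for that at 4.0 h, 1.19% for the mean of both times and 0% for the difference of the EPO effects between times. It was 0.324% for control at 1.5 h against fresh, 0.0671% for control at 4.0 h against fresh and 0.0112% for control at 4.0 h against 1.5 h. A count of 0 of 6 lies near these shares and is no result about the iron genes. Of the 42 results (6 genes, 7 comparisons), the 3 of aco1 (7.14%) had an unadjusted p below 0.05, and 4 of aco1 (9.52%) did with the block. Over all 62573 results of the 8939 genes the shares were 7.16% and 9.43%, so these counts lie at the background.

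The median log2 fold change of the 6 genes was -0.09 for EPO at 1.5 h, -0.05 at 4.0 h, 0.19 for control at 1.5 h against fresh and 0.02 at 4.0 h against fresh, beside medians over all genes tested of -0.02, 0.00, 0.02 and 0.01. Groups did not overlap for 1 of the 6 genes, aco1, between EPO and control at 4.0 h, a comparison in which 14.4% of all genes did not overlap. They overlapped for all 6 genes between EPO and control at 1.5 h (14.8% of all genes did not), control at 1.5 h and fresh (13.6%), control at 4.0 h and fresh (11.6%) and control at 4.0 h and 1.5 h (8.28%). Other pairs of groups, such as EPO at 4.0 h and at 1.5 h or EPO and fresh, were not counted.

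**Figure D3:**
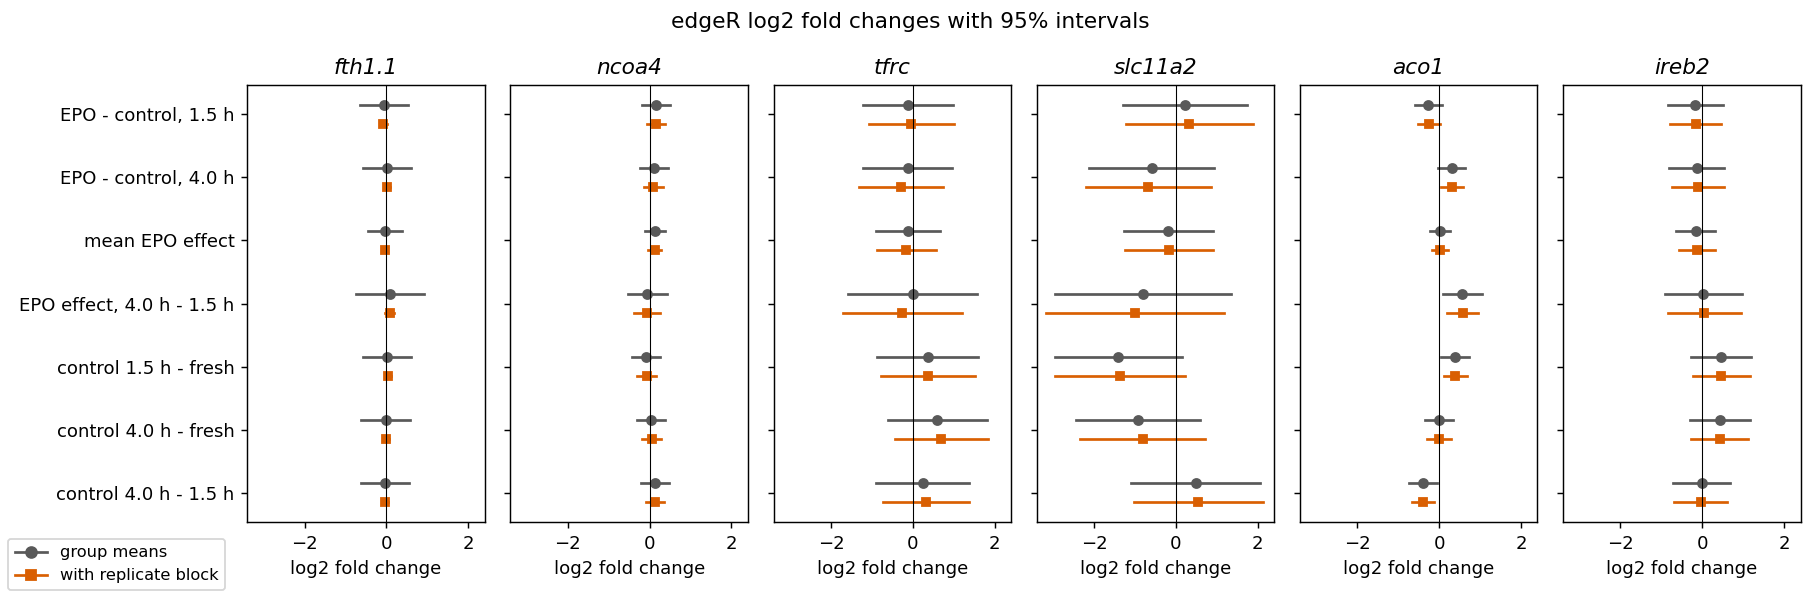
Log2 fold changes (x axis) of the 6 tested iron handling genes in the 7 comparisons (rows), with 95% intervals, from the edgeR fit of group means (grey circles) and from the fit with the replicate number as a block (orange squares). For fth1.1 the SE at 1.5 h is 0.267 in the first fit and 0.0379 in the second, and for slc11a2 it is 0.751 and 0.768.

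Other genes of iron metabolism were taken from lists of 95 genes, of which 79 were in the table and 53 were tested. In the edgeR fit of group means, 0 of the 53 rose and 0 fell in each of the 7 comparisons. At an unadjusted p below 0.05 there were 3 for EPO at 1.5 h, 3 at 4.0 h and 8 averaged over the times, 0 for the difference of the EPO effects, and 8, 6 and 1 in the 3 comparisons of control and fresh cells, 7.82% of the 371 results. Over all genes tested the shares with such a p were 7.13% for EPO at 1.5 h, 7.10% at 4.0 h, 11.8% for the mean, 2.55% for the difference of the EPO effects, and 9.69%, 8.10% and 3.73% in those 3 comparisons. The median log2 fold change of the 53 was 0.04 for EPO at 1.5 h, 0.04 at 4.0 h and 0.06 for the mean, and 0.10 and 0.11 for control at 1.5 h and 4.0 h against fresh. Of the lists, storage had 3 of 5 genes in the table tested, uptake and endosome 6 of 14, export and the hepcidin axis 2 of 9, and the control of iron regulatory proteins and oxygen sensing 5 of 8. The mitochondrial iron and iron-sulfur list had 19 of 20 tested, the cytosolic iron-sulfur list 8 of 10, heme transport and breakdown 8 of 11, and other mRNAs with an iron-responsive element 2 of 2.

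With the replicate number as a block, 3 of the 53 passed in at least 1 comparison, namely 2 for the mean EPO effect (3.77%), 1 for EPO at 4.0 h (1.89%) and 1 for control at 1.5 h against fresh (1.89%). Of all genes tested, 3.69%, 0.850% and 1.31% passed there with the block, so the counts are close to the background and say nothing particular to iron genes. In the comparisons where 0 of the 53 passed, the block called 1.55% of all genes for EPO at 1.5 h, 0.134% for the difference of the EPO effects, 0.593% for control at 4.0 h against fresh and 0.0895% for control at 4.0 h against 1.5 h. ABCB10 is an inner mitochondrial membrane transporter that in mice stabilises the iron importer mitoferrin. Its mRNA, abcb10, went from 67.0 ± 7.91 CPM in control to 93.1 ± 16.5 with EPO at 1.5 h and from 66.5 ± 21.4 to 100.2 ± 13.4 at 4.0 h (SD, n = 3). The EPO libraries were above the control libraries of their number in all 6 pairs. The replicate 2 pair at 1.5 h was nearly level, at 75.6 CPM with EPO and 75.1 CPM in control. Listed genes were named here for passing with the block on the same libraries, so their pair counts are no separate support. The share of all genes with such pair counts is not given here. The mean EPO effect on abcb10 was 0.54 ± 0.143 (SE, adjusted p = 0.0503), and 0.52 with the block (adjusted p = 0.00177), and at 4.0 h it was 0.61 ± 0.203 (adjusted p = 0.339, and 0.0372 with the block).

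The hypoxia-inducible factor gene hif1a lay at 75.3 ± 4.70 CPM in control and 100.4 ± 13.5 with EPO at 1.5 h, and at 76.0 ± 11 and 100.2 ± 7.07 CPM at 4.0 h (SD, n = 3). The mean EPO effect on hif1a was 0.41 ± 0.123 (SE, adjusted p = 0.0946, and 0.0115 with the block), with EPO higher in all 6 pairs of a number. In culture, pgrmc1, which encodes a heme-binding membrane protein, averaged 14.7 ± 4.34 CPM in the fresh libraries against 2.25 ± 1.87 in the 1.5 h control (SD, n = 3). Its log2 fold change was -2.70 ± 0.684 (SE, adjusted p = 0.0805, and 0.0257 with the block), and the groups did not overlap, like those of 13.6% of all genes. The control level of pgrmc1 rests on 2, 6 and 11 counts in replicates 1, 2 and 3, and the fresh level on 25, 23 and 27.

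The remaining genes named were chosen for their known roles, after their values were seen. The erythroferrone gene erfe held 95.5, 87.8 and 119 CPM in control and 137, 112 and 156 CPM with EPO at 1.5 h (replicates 1, 2 and 3). EPO exceeded control in 3 of 3 numbers there, but the groups overlapped. At 4.0 h erfe held 105, 85.5 and 103 CPM in control and 131, 67.4 and 139.6 CPM with EPO, higher in 2 of 3 numbers and lower in replicate 2. The mean EPO effect on erfe was 0.32 ± 0.151 (SE, edgeR adjusted p = 0.395, and 0.0873 with the block). The heme oxygenase gene hmox1, whose product frees iron from heme, had a log2 fold change of 1.11 ± 0.462 with EPO at 1.5 h (SE, edgeR adjusted p = 0.544). Its level there was 6.28 ± 3.41 CPM in control, from 57 counts, and 13.8 ± 6.01 with EPO (SD, n = 3). At 4.0 h hmox1 lay closer together, at 8.27 ± 2.22 CPM in control and 10.8 ± 6.14 with EPO. The heme transporter family gene flvcr2 had no count in fresh cells and 26 counts in control at 1.5 h. These were 8, 16 and 2 counts in replicates 1, 2 and 3. The pooled control level was 2.95 CPM, with a 95% exact Poisson interval of 1.93 to 4.32 CPM. That level was 5.28 times the limit of 3 counts over the fresh group, and the change did not pass (edgeR adjusted p = 0.230).

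Of the other mRNAs that carry an iron-responsive element in mammals, alas2, which encodes the erythroid enzyme that starts heme synthesis, lay between 3495 and 4687 CPM over all 15 libraries. Its log2 fold changes lay between -0.07 and 0.08 in the 7 comparisons, with an SE of 0.123 at 1.5 h with EPO (edgeR adjusted p of at least 0.867, and at least 0.495 with the block).

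**Figure D4:**
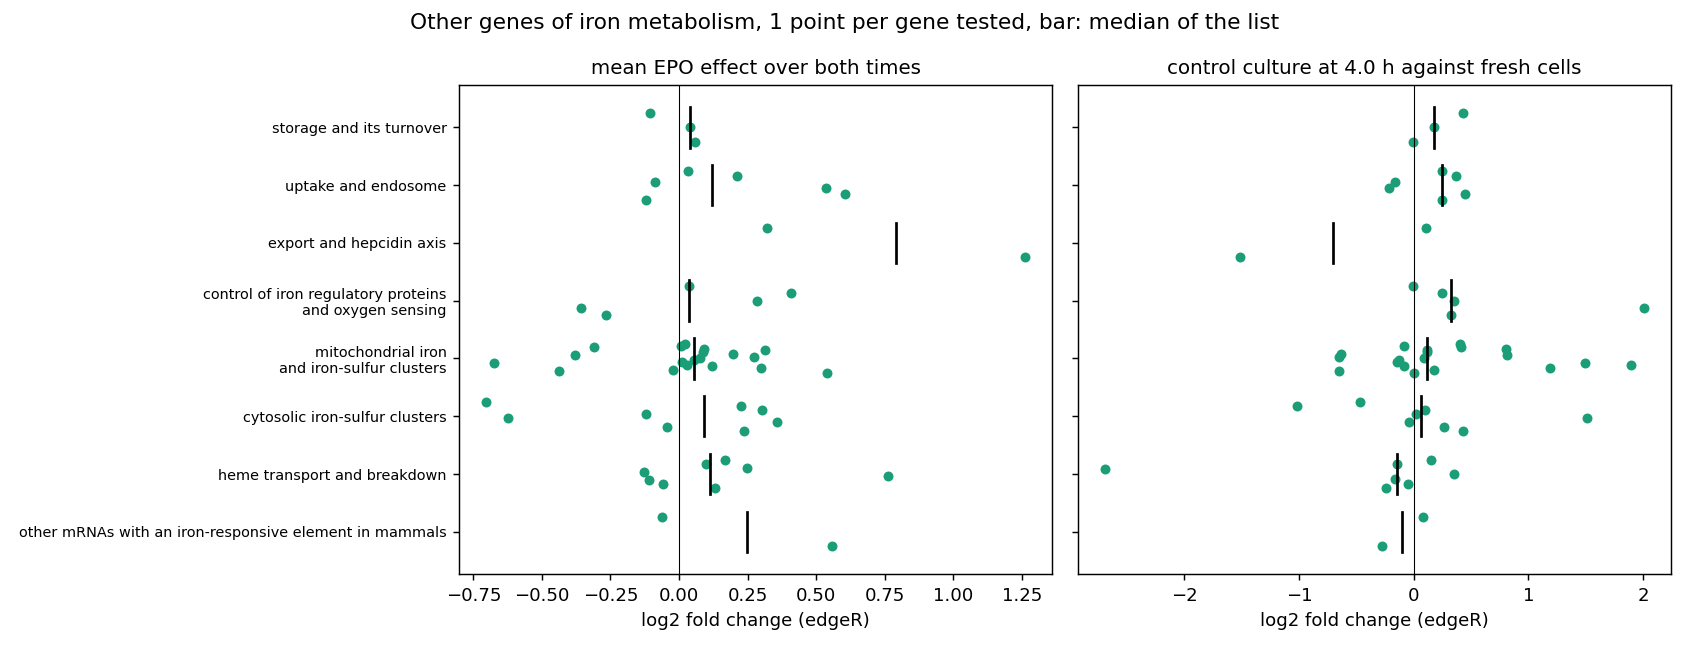
Log2 fold changes (x axis) of the other iron metabolism genes tested, 1 point per gene, by list (rows), for the mean EPO effect (left) and for control at 4.0 h against fresh cells (right, on a wider axis), with the list's median as a black bar. flvcr2 is left out on the right because its fresh libraries held no count. No point passed an adjusted p of 0.05 in the edgeR fit of group means. With the replicate block, 2 genes passed for the mean EPO effect and 0 for control at 4.0 h against fresh cells.

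Profiles over the 15 libraries were compared by Pearson's r of log2 CPM, as a description, among 3836 or 3837 other genes with a readable symbol and a mean of at least 10 CPM. Libraries share their replicate number and depth, so r reads those too. The profile of fth1.1 was most like that of the adhesion receptor gene adgrg1 (r = 0.927), the glycolysis gene gapdh (0.925) and arhgef25 (0.879), in which replicate 3 also exceeded replicates 1 and 2, by 0.58, 0.66 and 0.85 on the log2 scale. The profile of ncoa4 was most like those of pxn (0.888), cbl (0.863) and gcn1 (0.851), in which replicate 3 lay lower by -0.33, -0.38 and -0.56. For aco1 they were tomm70 (0.760), mrpl52 (0.757) and eif1 (0.747). For ireb2 they were txn2 (0.892), mknk2 (0.831) and ndrg3 (0.797). For the sparse genes tfrc (naa40, tstd3 and xrn1, at 0.819, 0.815 and 0.760) and slc11a2 (ncl, anapc13.1 and dpep2, at 0.846, 0.741 and 0.712) the profiles rest on few counts.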

How the data were processed

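Per the labels, total RNA of 15 samples went into Lasy-Seq v1.1, which reads 3' ends. The authors deposited raw whole-number counts per gene. The submitters' processing notes list Salmon, R 4.3.2, BWA 0.7.17-r1188 and fastp 0.21.0. The role of each tool, the genome build and whether counting used strand are not given here. Gene symbols are those of the table, and 26530 of 26531 matched a RefSeq table of UCB_Xtro_10.0.

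From the counts, edgeR 4.0.16 (in R 4.3.3) was run as follows: filterByExpr on the 5 groups, TMM scaling, a model of 5 group means over 15 libraries with robust quasi-likelihood dispersion (10 residual degrees of freedom), two-sided tests in 7 contrasts and Benjamini-Hochberg adjustment over 8939 genes, with 0.05 as the threshold. The SE is the size of the log2 fold change divided by the square root of F. This fit of group means was tested on simulated data, drawn without any effect of the replicate number. The blocked fit was not tested in that way. Libraries of a group were distinct (chi-square per degree of freedom of 4.61 to 12.6).

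Pairing was checked by correlating deviations from group means over 1400 genes above a mean log2 CPM of 5. Same-number pairs (30) gave r of 0.278 to 0.628 and the 60 others -0.390 to 0.0469, so the numbers were taken to pair the samples. The labels give numbers only. The blocked fit has 8 residual degrees of freedom.

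The alternatives were DESeq2 size factors, globins and fth1.1 out of library sizes, the DESeq2 1.42.0 Wald test, no filter, only the groups compared, the block, and leaving out each library. The genes, lists and tests were chosen with earlier results of these data known. Genes named are the 7, other listed genes past the threshold (up to 6 per comparison, of which there were 0), alas2 in each comparison, and the 3 most similar profiles per tested gene. Listed genes that passed with the block, and ftmt, tfr2, erfe, hmox1 and flvcr2, were added after their values were seen. Another gene that the rule names is not reported here.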

Additional observations from a re-analysis of the deposited data

Results flagged for a closer look

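The EPO effect on aco1 had opposite signs at the 2 times in every replicate number. All tested iron handling genes were screened for this sign pattern, and the share of all genes that show it is not given here. At 1.5 h the EPO libraries lay below their controls, by -0.10, -0.33 and -0.33 on the log2 scale in replicates 1, 2 and 3, and at 4.0 h above them, by 0.58, 0.16 and 0.20. The difference of the EPO effects, 4.0 h minus 1.5 h, was 0.57 ± 0.233 (SE, edgeR unadjusted p = 0.0203, adjusted p = 1.00, and adjusted p = 0.748 with the block), so it did not pass over all genes. Without 1 library it ranged from 0.44 to 0.68. Of all genes tested, 2.55% had an edgeR unadjusted p below 0.05 for the difference of the EPO effects.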

How the results depend on the processing

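In 7 comparisons and 12 or 18 alternatives each, 0 of the 6 tested genes passed. Of 576 log2 fold changes 74 changed sign, 31 of them of fth1.1, and the lowest adjusted p was 0.199 (aco1, control at 1.5 h against fresh, with the replicate block). DESeq2 gave no adjusted p for 4. The counts over all genes did move. With the replicate block they were 139 in place of 39 for EPO at 1.5 h, 76 in place of 17 at 4.0 h, 330 in place of 106 for the mean, 12 in place of 0 for the difference, 117 in place of 29 and 53 in place of 6 for control at 1.5 h and 4.0 h against fresh, and 8 in place of 1 for control at 4.0 h against 1.5 h. By the DESeq2 Wald test they were 59, 51, 187, 0, 63, 12 and 3 in the same order. Without 1 library they ranged from 13 to 36, 0 to 12, 64 to 113, 0 to 0, 7 to 30, 0 to 10 and 0 to 3. Scalings moved the median of all genes by at most 0.02 on the log2 scale. At 144 and 339 counts in all, slc11a2 and tfrc are limited by depth, and leaving out 1 library moved several of their differences more than 1.5 times.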
